A study of Homo sapiens with 8 samples.

Results

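This is an account of 43 genes of double-strand break and DNA crosslink repair, among 23710 gene symbols counted in a human lymphoblastoid cell line, a B cell culture made permanent by Epstein-Barr virus. The genes were chosen by name, as members of homologous recombination, the Fanconi pathway and break signalling, and all 43 were counted and passed the filter on low counts. RNA was sequenced from control cells before exposure, from cells at 24 h of exposure to 5 µM hexavalent chromium, and from cells 3 and 7 days post treatment after that 24 h exposure, with 2 libraries in each group. All libraries came from the same line, and no unexposed cells from the later times were analysed here, so exposure and time in culture cannot be told apart. The sample titles count days from the treatment, whereas the design text counts time from the onset of exposure.

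Hexavalent chromium enters cells as chromate and is reduced there to forms that bind DNA and link its strands. Crosslinks stall replication forks, and their removal by the Fanconi pathway leaves double-strand breaks, which homologous recombination rejoins by copying the intact sister chromatid. A break is first marked by sensor and kinase proteins that modify the chromatin around it. Most recombination genes are transcribed mainly in cells that replicate their DNA, so their RNA level depends also on how many cells are cycling, and in bulk RNA fewer expressing cells and less RNA per cell cannot be told apart.

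Total gene counts were 9478459 to 11110830 per library, and the 43 repair genes took 29659 to 47525 of them, which is 0.292% to 0.447%. B cell markers were present in every library, with a summed level of 4538 to 7243 CPM (read counts over TMM-scaled library size). In at least 1 library, 10 of 10 reached 10 CPM. T and NK cell markers summed to 1.21 to 3.42 CPM, and 0 of 8 reached 10 CPM in any library, with 3 at 0 throughout. Myeloid markers summed to 5.80 to 14.8 CPM, where 1 of 8, ITGAM, reached 10 CPM, and stromal or epithelial markers to 4.52 to 13.0 CPM, where 0 of 8 did. Replicate 1 at 3 days and replicate 1 at 7 days stood apart from the other 6 libraries. In them the 20 most abundant genes took 12.5% of counts against 8.88% to 9.65% in the others, and the repair genes took the smallest shares, 0.292% and 0.298%. Among the 43 genes, 17 were lower in both of these libraries than in any of the other 6 (26.4% of all 12536 genes tested were), and 7 were higher (27.1%). For many but not all members, results at 3 and 7 days are therefore also given without these libraries, a setting chosen after seeing the data. Without them, 26 of the 43 members kept their sign at 3 days and 30 at 7 days. The 4 early libraries also split across groups. Control replicate 1 and 24 h replicate 2 both lay above control replicate 2 and 24 h replicate 1 for 19 of the 43 genes (30.9% of all genes) and below for 11 (29.6% of all genes).

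Promoters of 3 genes are shown as examples. ATM was the member with the most CPM and had a 4.08-fold range over the libraries. For BLM and H2AFX the 2 libraries at both later times lay above both control libraries. This order was found in 10 members and in 10.4% of all genes tested. Each sequence is the 250 bases before the annotated start, from RefSeq on GRCh38.p14, with the letters CCAAT, or ATTGG where the box lies on the other strand, in capitals. CCAAT is the box bound by the factor NF-Y. ATM stands at chr11:108223075-108223324 on the plus strand, BLM at chr15:90717096-90717345 on the plus strand, and H2AFX, named H2AX in RefSeq, at chr11:119095466-119095715 on the minus strand.
ATM: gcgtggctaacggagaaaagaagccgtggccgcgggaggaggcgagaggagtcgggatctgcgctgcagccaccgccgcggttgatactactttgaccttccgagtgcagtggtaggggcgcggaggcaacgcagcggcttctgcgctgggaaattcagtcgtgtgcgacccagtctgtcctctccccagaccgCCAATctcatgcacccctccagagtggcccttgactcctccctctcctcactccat
BLM: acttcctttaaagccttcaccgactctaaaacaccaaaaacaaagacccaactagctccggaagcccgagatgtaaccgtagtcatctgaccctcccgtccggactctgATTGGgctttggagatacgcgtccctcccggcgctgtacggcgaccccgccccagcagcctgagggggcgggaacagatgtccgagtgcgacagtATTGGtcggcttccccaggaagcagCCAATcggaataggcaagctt
H2AFX: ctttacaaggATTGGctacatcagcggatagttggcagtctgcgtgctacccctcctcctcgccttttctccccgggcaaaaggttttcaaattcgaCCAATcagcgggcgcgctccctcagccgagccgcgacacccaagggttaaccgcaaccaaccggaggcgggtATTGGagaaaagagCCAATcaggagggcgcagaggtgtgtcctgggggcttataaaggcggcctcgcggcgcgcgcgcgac
The box occurred 1 time in this window of ATM, 3 times in BLM and 4 times in H2AFX. RAD54L and CHEK1 shared the later order of BLM and H2AFX and also held the box. FANCG, RMI1, TOPBP1 and RNF168 shared that order and held none. Among the 39 repair genes with a promoter entry, 17 held at least 1 such box on either strand (43.6%), against 32.7% of 27305 promoters of the same length. These matches describe letters and do not show that the factor binds. RAD54B, RMI2, FANCI and NBN had no entry.

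Per kilobase of annotated exon, which allows levels of different genes to be compared, H2AFX stood highest, at a mean over the 8 libraries of 68.4 CPM per kilobase (range 37.8 to 85.7). It encodes the histone variant that is phosphorylated around a break. FANCI followed at 55.3 (range 44.9 to 74.0), FANCL at 45.1 (range 17.5 to 66.1) and NBN at 39.6 (range 24.8 to 60.7), all in CPM per kilobase. The ranges of these 4 genes overlapped, so their order is not fixed beyond the spread of the libraries. At the low end were RAD51D at 0.927, FANCE at 3.06 and RAD51B at 3.12 CPM per kilobase. RAD51D lay below every library of FANCE, whereas FANCE and RAD51B overlapped. Exon lengths are unions over the basic transcripts of GENCODE 29, which include exons that these cells may not use.

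**Figure D1:**
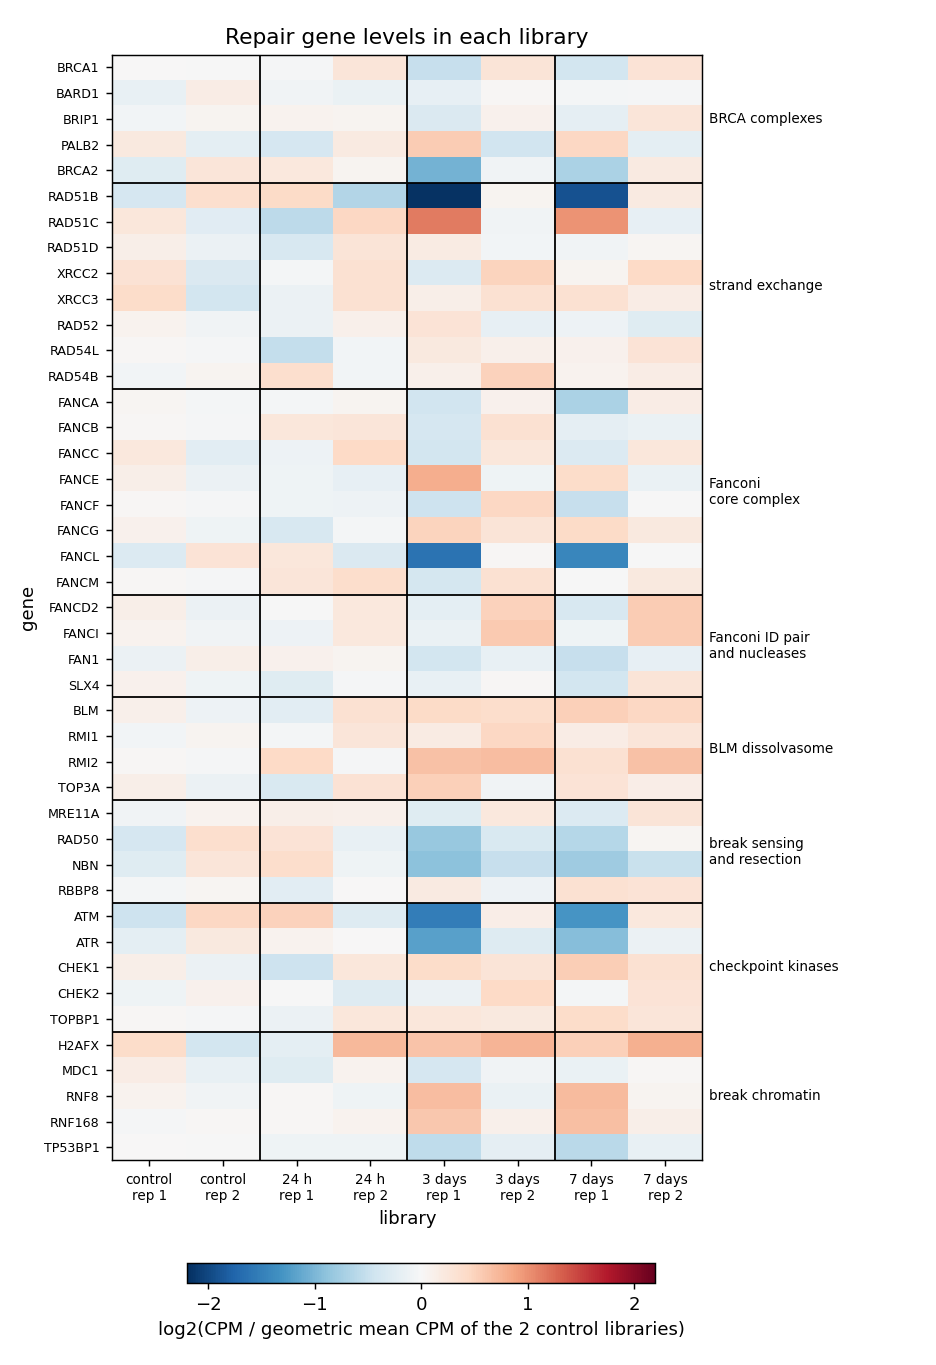
Level of each repair gene (rows, by role) in each of the 8 libraries (columns), as log2 of CPM over the geometric mean of the 2 control libraries; red is above and blue below. The darkest cells are in replicate 1 at 3 and at 7 days, where RAD51B, FANCL, ATM and ATR were low and RAD51C was high, while BLM, RMI1 and RMI2 were above control in all 4 later libraries.

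At 24 h of exposure, the question is which repair genes stood apart from control at the end of the exposure. No member passed the test at an adjusted p under 0.05 (edgeR, 0 of 43; 0% of all genes tested), and 0 had an unadjusted p under 0.05, where 0.175% of all genes did. DESeq2 also called 0 members in this and each later comparison. The median log2 fold change over the 43 was 0.05, with 26 positive and 17 negative, beside a median of 0.00 over all genes (50% positive). Without control replicate 2 this median was -0.02, and without 24 h replicate 2 it was -0.08. All members lay between -0.27 (RAD54L) and 0.33 (FANCM). For 4 members both 24 h libraries lay above both control libraries (11.4% of all genes did) and for 3 both lay below (12.5% of all genes).

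FANCM, a translocase that recruits the Fanconi core complex to stalled forks, had the smallest p at 24 h. It stood at 58.5 and 63.4 CPM at 24 h, against 49.3 and 47.9 CPM in control (log2 fold change 0.33 ± 0.27 SE, edgeR adjusted p = 1). FANCB, a core complex subunit, stood at 21.5 and 21.7 CPM against 18.4 and 17.7 CPM in control (log2 fold change 0.26). For both genes the 24 h libraries lay above both control libraries by more than the replicates differed, although neither passed the test. RAD54L, which encodes the motor protein RAD54 that drives strand exchange, stood at 34.0 and 46.8 CPM against 49.8 and 47.8 CPM in control (log2 fold change -0.27). Its 24 h libraries both lay below control, but they differed from each other more than from it. FANCG, another core subunit, was at 28.4 and 35.3 CPM against 38.7 and 34.3 CPM in control (log2 fold change -0.19), with overlapping groups. RMI2 was at 20.2 and 14.7 CPM against 15.1 and 14.7 CPM, and 1 of its 24 h libraries lay just below both control libraries.

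At 3 days post treatment, no member passed (edgeR, 0 of 43; 0% of all genes). At an unadjusted p under 0.05 there were 2 of 43, RMI2 and NBN, where 5.29% of all genes reached that level. The median log2 fold change was 0.07, with 27 members positive and 16 negative, against 0.01 over all genes (51.2% positive). It was -0.18 without 3 day replicate 2 and 0.10 without both late replicate 1 libraries. Both 3 day libraries lay above both control libraries for 10 members (16.7% of all genes) and below for 4 (17.2% of all genes).

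At 7 days the count was again 0 of 43 (edgeR; 0% of all genes), and 1 member, NBN, had an unadjusted p under 0.05 (4.94% of all genes). The median was 0.10, with 24 members positive and 19 negative, against 0.00 over all genes (50.1% positive); it was -0.07 without 7 day replicate 2 and 0.17 without both late replicate 1 libraries. The libraries lay above both controls for 12 members (16.6% of all genes) and below for 5 (17.9% of all genes). The 3 and 7 day comparisons share the control libraries and are not independent. In both of them, 10 members lay above control, namely RAD54L, RAD54B, FANCG, BLM, RMI1, RMI2, CHEK1, TOPBP1, H2AFX and RNF168 (10.4% of all genes did), and 3 lay below, FAN1, NBN and TP53BP1 (11.7% of all genes).

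**Figure D2:**
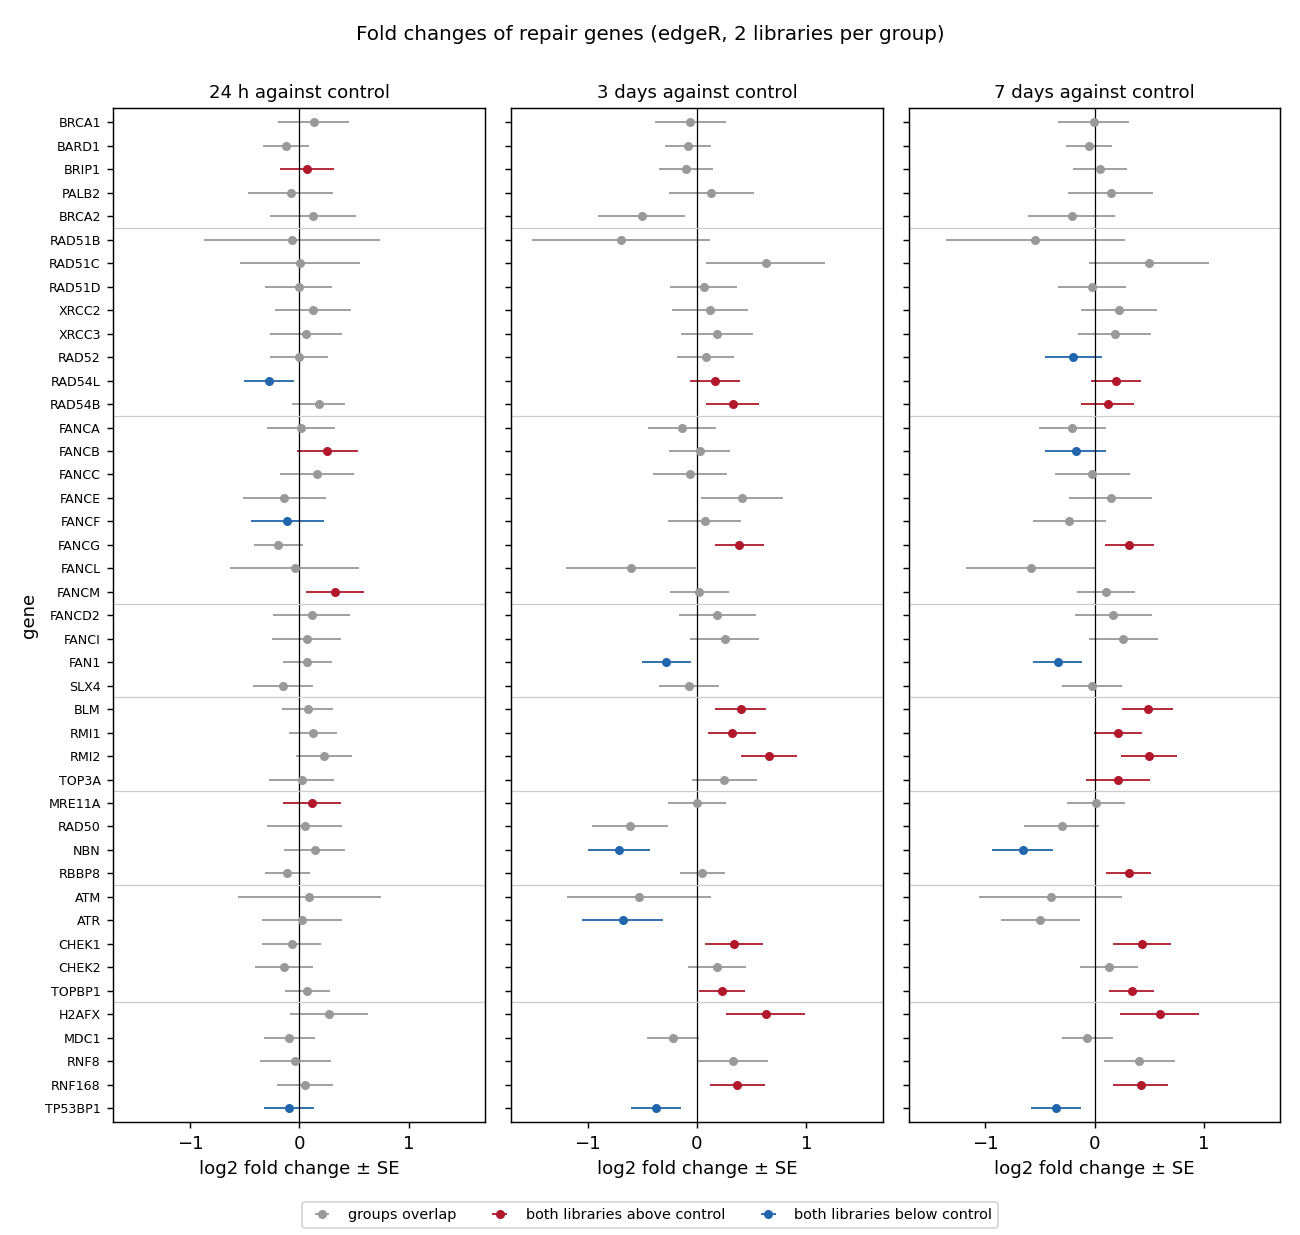
Log2 fold change against control for each of the 43 genes (rows, ordered by role), with bars of 1 standard error, at 24 h, 3 days and 7 days; red points mark genes whose 2 exposed libraries both lay above both controls and blue points those below. Points spread little at 24 h (-0.27 to 0.33) and more at 3 days (-0.71 to 0.66) and 7 days (-0.66 to 0.60), and no gene passed the adjusted test.

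Among the 4 break sensing and resection genes, 2 had positive and 2 negative log2 fold changes at both later times, and NBN had the lowest value of all 43 genes at each. NBN, which encodes NBS1, the subunit of the MRN complex that recruits the kinase ATM to a break, stood at 189 and 271 CPM in control, 295 and 213 CPM at 24 h, 121 and 159.9 CPM at 3 days and 131 and 161 CPM at 7 days. All 4 later libraries lay below all 4 earlier ones. At 3 days its mean was 140.2 ± 27.8 CPM against 230.2 ± 57.7 CPM in control (SD, n = 2 each; log2 fold change -0.71 ± 0.28 SE, edgeR unadjusted p = 0.0341, adjusted p = 0.843), and at 7 days 146 ± 20.9 CPM (log2 fold change -0.66 ± 0.28 SE, adjusted p = 0.851). Set against 24 h, the 3 day value was -0.86 ± 0.28 SE on the log2 scale (adjusted p = 0.757), the lowest of the 43 in that comparison. Without both late replicate 1 libraries the log2 fold change against control was -0.52 at both times, and at 3 days it was -0.95 without control replicate 1 and -0.44 without control replicate 2. In the joint test of the 3 exposed groups, NBN was the 1 member with an unadjusted p under 0.05 (0.0308, adjusted p = 1; 3.56% of all genes were under 0.05).

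RAD50, the coiled-coil ATPase of the same complex, stood at 181 and 299 CPM in control, 287 and 209 CPM at 24 h, 131 and 184 CPM at 3 days and 150.4 and 239 CPM at 7 days. Its 3 day libraries lay below both 24 h libraries but overlapped control. Its log2 fold change against control was -0.61 at 3 days and -0.30 at 7 days, or -0.38 and -0.0040 without both late replicate 1 libraries, and with 1 library left out the 3 day value ranged from -0.93 to -0.21. MRE11A, the nuclease of the complex, was at 72.9 and 81.1 CPM in control, 84.0 and 82.8 CPM at 24 h, 64.1 and 89.9 CPM at 3 days and 62.2 and 93.1 CPM at 7 days, and its log2 fold change was 0.00 at 3 days and 0.01 at 7 days, or 0.23 and 0.28 without both late replicate 1 libraries. Against control, the 3 subunits thus held unequal log2 fold changes at 3 days, and the difference among them was not tested. A readthrough gene, AC116366.3, shares 90.6% of the annotated exon bases of RAD50 on the same strand, so its counts are uncertain. RBBP8, which encodes the resection factor CtIP, stood at 121 and 119 CPM at 7 days against 94.1 and 99.5 CPM in control (log2 fold change 0.31). Its 3 day libraries spanned control, with a log2 fold change of 0.05, or -0.10 without both late replicate 1 libraries. RBBP8 has 1 annotated pseudogene copy whose reads may be confused with it.

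The BLM dissolvasome, which takes apart the double Holliday junctions that recombination leaves, had 4 of 4 members positive at 24 h, 3 days and 7 days. Of all genes, 50%, 51.2% and 50.1% were positive, and these comparisons share the control libraries. At 24 h, leaving out 1 library gave BLM from -0.23 to 0.33 and RMI2 from -0.023 to 0.43. Without both late replicate 1 libraries TOP3A was -0.08 at 3 days, so that 3 of the 4 were then positive there. The median log2 fold change of the dissolvasome was 0.10 at 24 h, 0.36 at 3 days and 0.35 at 7 days. BLM, its helicase, stood at 94.9 and 82.2 CPM in control, 75.5 and 111 CPM at 24 h, 118 and 116 CPM at 3 days and 127 and 121 CPM at 7 days. The 4 later libraries lay close together and above every control and 24 h library (log2 fold change 0.40 ± 0.23 SE at 3 days and 0.49 ± 0.23 SE at 7 days, adjusted p = 0.843 and 0.851). RMI2, a small scaffold subunit, stood at 15.1 and 14.7 CPM in control, 20.2 and 14.7 CPM at 24 h, 23.2 and 24.0 CPM at 3 days and 18.9 and 23.3 CPM at 7 days. At 3 days its mean was 23.6 ± 0.547 CPM against 14.9 ± 0.261 CPM in control (SD, n = 2 each; log2 fold change 0.66 ± 0.25 SE, edgeR unadjusted p = 0.0314, adjusted p = 0.843). RMI1, the other scaffold, had log2 fold changes of 0.32 at 3 days and 0.21 at 7 days, with separated groups at both times. TOP3A, the topoisomerase, was at 99.1 and 64.9 CPM at 3 days against 75.6 and 62.4 CPM in control, which overlap. With those libraries left out, the 3 and 7 day log2 fold changes were 0.39 and 0.46 for BLM, 0.69 and 0.65 for RMI2, 0.46 and 0.26 for RMI1, and -0.08 and 0.14 for TOP3A.

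Beside these values stand those of cell cycle genes, whose part in the result was not tested. Over 30 mitosis genes the median log2 difference from the control mean was 0.29 and 0.40 at 3 days and 0.46 and 0.52 at 7 days, against 0.06 and -0.06 in control. Over 36 DNA replication genes it was 0.50 and 0.28 at 3 days and 0.44 and 0.33 at 7 days, against 0.23 and -0.23 in control. At 24 h the medians were -0.28 and 0.11 for the mitosis genes and -0.34 and 0.22 for the replication genes. The mitotic kinase gene CDK1 stood at 308 and 363 CPM at 3 days against 237 and 218 CPM in control. Over the 43 repair genes the same quantity was -0.17 and 0.11 at 3 days and -0.08 and 0.19 at 7 days, against 0.03 and -0.03 in control. It was -0.04 and 0.07 at 24 h.

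Among the checkpoint kinases and TOPBP1, the apical kinases ATM and ATR had negative log2 fold changes at the later times. CHEK1, CHEK2 and TOPBP1 had positive ones. ATM, the kinase that responds to breaks, had the most CPM of the members, a measure that is not divided by exon length. It stood at 473 and 887 CPM in control, 917 and 532 CPM at 24 h, 225 and 716 CPM at 3 days and 264 and 765 CPM at 7 days. Within each group its libraries differed by more than any difference between group means, with the lowest levels in replicate 1 at 3 and 7 days (log2 fold change -0.53 ± 0.66 SE at 3 days). Without both late replicate 1 libraries its value was 0.08 at 3 days and 0.17 at 7 days, of opposite sign. ATR, which responds to stalled forks, stood at 211 and 287 CPM in control, 259.5 and 247 CPM at 24 h, 108 and 203 CPM at 3 days and 129 and 224 CPM at 7 days. Its 3 day libraries both lay below control (log2 fold change -0.68 ± 0.37 SE, adjusted p = 0.843; -0.29 without both late replicate 1 libraries), while 7 days overlapped control (-0.49, or -0.15 without them).

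CHEK1, the effector kinase of ATR that holds cells before mitosis, stood at 124 and 103 CPM in control, 82.1 and 134 CPM at 24 h, 149.6 and 137 CPM at 3 days and 165 and 141.9 CPM at 7 days. Both later groups lay above control (log2 fold change 0.34 at 3 days and 0.43 at 7 days). TOPBP1, the activator of ATR, was at 213 and 208 CPM at 3 days and 239 and 216 CPM at 7 days, against 182 and 177 CPM in control, again with separated groups. CHEK2, the effector of ATM, was at 33.2 and 49.1 CPM at 3 days against 34.0 and 38.6 CPM in control, which overlap, and reads of its 4 annotated pseudogene copies may be confused with it.

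Genes that act on break chromatin were split as well. H2AFX stood at 107 and 61.0 CPM in control, 69.7 and 133 CPM at 24 h, 125 and 135 CPM at 3 days and 115 and 138 CPM at 7 days. Both later groups lay above both controls (log2 fold change 0.63 ± 0.36 SE at 3 days and 0.60 ± 0.36 SE at 7 days), but the controls lay far apart, and the 3 day value was 0.28 without control replicate 2 and 1.09 without control replicate 1. RNF168, a ubiquitin ligase that extends the mark around a break, stood at 119 and 124 CPM in control, 124 and 129 CPM at 24 h, 184 and 131 CPM at 3 days and 193 and 133 CPM at 7 days. Its 2 later groups lay above control mainly through replicate 1 (log2 fold change 0.37 at 3 days, or 0.12 without both late replicate 1 libraries). RNF8, the ligase that acts before it, was likewise higher in replicate 1 than in replicate 2 at 3 days, but its groups overlapped. It stood at 63.9 and 36.0 CPM at 3 days against 42.2 and 37.6 CPM in control (log2 fold change 0.33, or -0.14 without both late replicate 1 libraries). TP53BP1, which protects ends from resection, stood at 106 and 104 CPM in control, 97.9 and 98.2 CPM at 24 h, 71.0 and 90.8 CPM at 3 days and 69.7 and 94.1 CPM at 7 days. Its later libraries all lay below the earlier ones, with TUBGCP4 overlapping 28.9% of its exon bases on the opposite strand (log2 fold change -0.37 ± 0.23 SE at 3 days and -0.36 ± 0.23 SE at 7 days, or -0.20 and -0.15 without both late replicate 1 libraries). MDC1, the adaptor that binds phosphorylated H2AX, was -0.22 and -0.07 on that scale with overlapping groups.

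**Figure D3:**
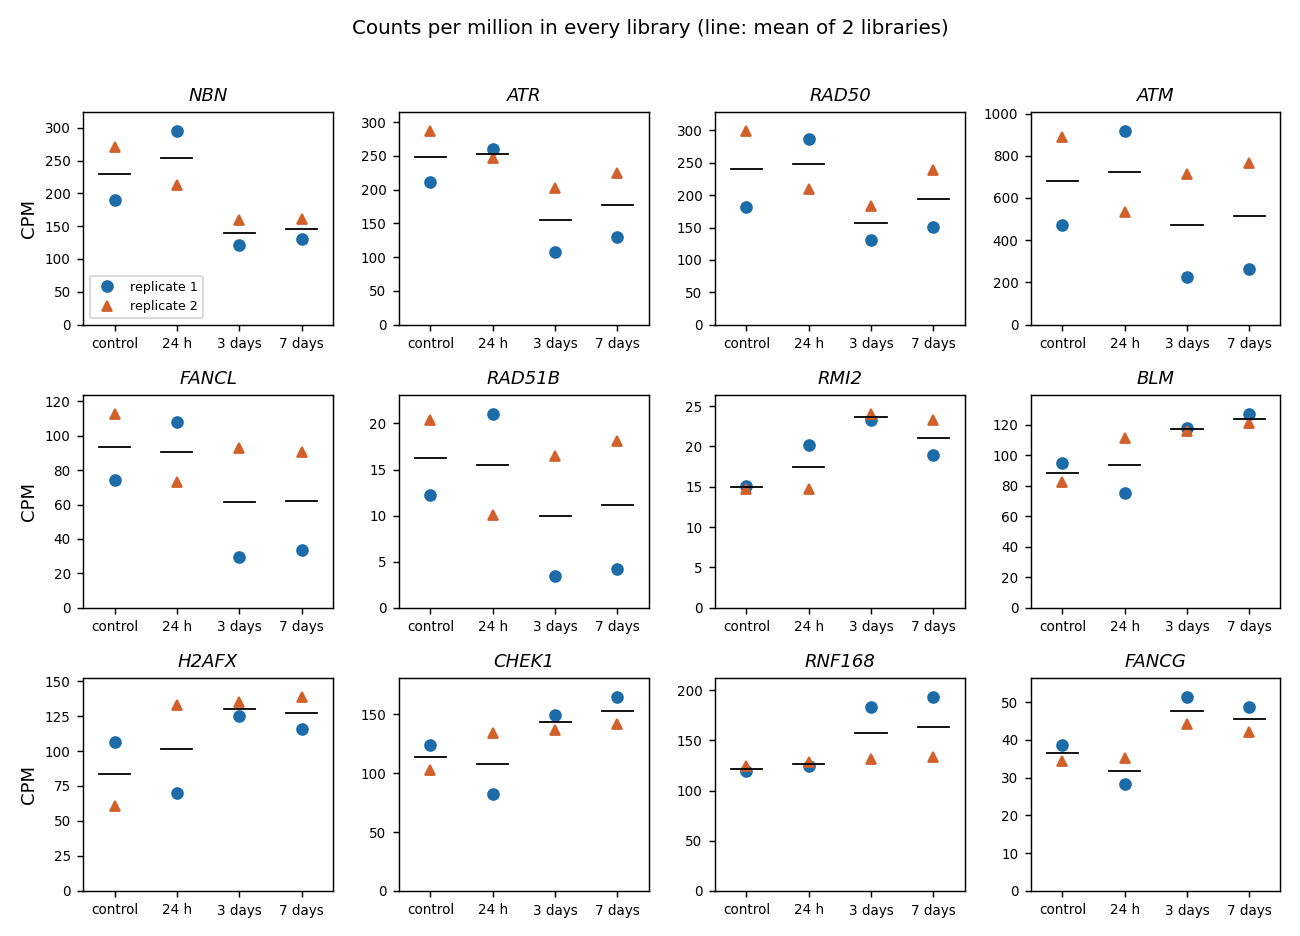
CPM of 12 repair genes in every library, in time order from control to 7 days; circles are replicate 1, triangles replicate 2 and lines the mean of the 2 libraries. NBN is lower in all 4 later libraries, BLM and CHEK1 are higher than control in them, and ATM, FANCL and RAD51B differ chiefly between replicate 1 and replicate 2.

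Several Fanconi genes differed more between libraries of a group than between groups. FANCD2 and FANCI form the ID pair that clamps onto DNA at a crosslink. FANCD2 stood at 180.1 and 151 CPM in control, 164 and 195 CPM at 24 h, 141.9 and 235 CPM at 3 days and 129 and 244 CPM at 7 days. FANCI stood at 271 and 244 CPM in control, 239.5 and 301 CPM at 24 h, 232 and 383 CPM at 3 days and 241 and 377 CPM at 7 days. Replicate 2 of both later groups lay above all earlier libraries for both genes, and replicate 1 lay below both controls. At 3 days the log2 fold change was 0.19 for FANCD2 and 0.25 for FANCI, and without 3 day replicate 2 it was -0.23 and -0.15. With both late replicate 1 libraries left out, FANCD2 had 0.51 at 3 days and 0.56 at 7 days, and FANCI had 0.58 and 0.55 (edgeR adjusted p from 0.776 to 0.905). FANCD2 has 1 annotated pseudogene copy whose reads may be confused with it.

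FANCL, the ubiquitin ligase subunit that modifies the pair, stood at 74.1 and 113 CPM in control, 108 and 73.1 CPM at 24 h, 29.7 and 93.0 CPM at 3 days and 33.8 and 90.7 CPM at 7 days. Both late replicate 1 libraries lay far below every other library (log2 fold change -0.60 at 3 days and -0.58 at 7 days, or 0.0037 and -0.04 without them). VRK2 overlaps 26.6% of its annotated exon bases on the opposite strand, and the strand setting of the counting is not given in the sources used here. FANCA, another core subunit, was at 74.9 and 71.3 CPM in control, 71.3 and 76.5 CPM at 24 h, 54.8 and 78.2 CPM at 3 days and 45.3 and 81.8 CPM at 7 days, with replicate 1 again below control at the later times (log2 fold change -0.14 at 3 days, or 0.10 without both late replicate 1 libraries); ZNF276 overlaps 22.4% of its exon bases. FANCG, by contrast, lay above control in all 4 later libraries, at 51.3 and 44.3 CPM at 3 days and 48.7 and 42.2 CPM at 7 days, against 38.7 and 34.3 CPM in control (log2 fold change 0.39 and 0.32).

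FANCG also lay above its 24 h level at 3 days (0.58 ± 0.22 SE, unadjusted p = 0.0316, edgeR adjusted p = 0.757). Over the 8 core complex genes the median log2 fold change was -0.01 at 24 h, 0.02 at 3 days and -0.10 at 7 days. Of the nucleases, FAN1 lay below control at both later times (37.6 and 44.2 CPM at 3 days and 34.9 and 43.7 CPM at 7 days, against 45.3 and 54.0 CPM in control). Its log2 fold change was -0.28 and -0.34, or -0.16 and -0.18 without both late replicate 1 libraries. SLX4, a nuclease scaffold, had log2 fold changes of -0.07 and -0.02, or 0.04 and 0.28 without those libraries.

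The BRCA genes had a median log2 fold change of -0.08 at 3 days and -0.01 at 7 days, and BRCA2 had -0.51 and -0.21. BRCA1, the ligase that promotes resection, stood at 86.5 and 85.0 CPM in control, 84.4 and 103 CPM at 24 h, 60.3 and 104 CPM at 3 days and 65.2 and 105 CPM at 7 days. Its log2 fold change was -0.06 at 3 days and -0.01 at 7 days. BRCA2, a mediator of strand invasion, stood at 113 and 165 CPM in control, 161 and 143 CPM at 24 h, 66.7 and 129 CPM at 3 days and 84.4 and 156 CPM at 7 days. PALB2, the bridge between BRCA1 and BRCA2, was at 49.7 and 37.2 CPM in control, 33.2 and 49.0 CPM at 24 h, 63.1 and 32.1 CPM at 3 days and 59.1 and 37.2 CPM at 7 days. In the late replicate 1 libraries BRCA2 was lowest and PALB2 highest, so these partners differed between libraries in opposite directions. Without both late replicate 1 libraries the 3 day log2 fold change took the other sign for BRCA1 (0.28) and PALB2 (-0.43, against 0.13 with all libraries). BRCA2 then had -0.10 at 3 days and 0.17 at 7 days, and PALB2 was the lowest of the role at both times (-0.22 at 7 days). None of the 5 genes of this role had separated groups at 3 or 7 days. Of all genes, 16.7% were separated higher and 17.2% lower at 3 days, and 16.6% and 17.9% at 7 days.

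Among the genes of strand exchange, the step in which a broken end pairs with an intact copy, the largest spread belonged to RAD51B, at 12.2 and 20.4 CPM in control, 21.01 and 10.04 CPM at 24 h, 3.49 and 16.5 CPM at 3 days and 4.20 and 18.1 CPM at 7 days, a range of 6.01-fold on counts of 34 to 209. RAD51C stood at 17.7 and 12.6 CPM in control, 10.1 and 20.5 CPM at 24 h, 32.9 and 14.1 CPM at 3 days and 29.7 and 13.2 CPM at 7 days. In the late replicate 1 libraries RAD51B was lowest and RAD51C highest of all 8 libraries, and their values in the other later libraries lay within control. The log2 fold change of RAD51C at 3 days was 0.63 ± 0.55 SE, and -0.10 without both late replicate 1 libraries. RAD51D, XRCC2 and XRCC3 had log2 fold changes of 0.06, 0.12 and 0.18 at 3 days, each with overlapping groups. KLC1 overlaps 45.3% of the exon bases of XRCC3. RAD54L was at 56.3 and 52.9 CPM at 3 days and 51.8 and 59.9 CPM at 7 days, against 49.8 and 47.8 CPM in control, with LRRC41 overlapping 17.99% of its exon bases. Against 24 h its 3 day value was 0.44 ± 0.23 SE on the log2 scale (adjusted p = 0.757). RAD54B, its relative, was at 42.1 and 55.9 CPM at 3 days against 37.7 and 40.6 CPM in control; most of its exon bases (63.3%) are shared with FSBP. RAD52, an annealing factor, was at 21.2 and 15.2 CPM at 3 days and 15.8 and 14.3 CPM at 7 days, against 18.1 and 16.3 CPM in control.

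Members with more exon sequence tended to have lower fold changes at the later times, except in replicate 2 at 7 days. Across the 43 genes, Spearman's rho between exon length and log2 fold change was 0.17 at 24 h, -0.53 at 3 days and -0.39 at 7 days, against 0.10, -0.26 and -0.19 over the 12133 genes with a length. These are descriptions across genes that share the same libraries, not independent replicates. In the shorter members (21 genes of 1.61 to 4.89 kb) the median log2 difference from the control mean was 0.20 and 0.28 in the 3 day replicates. In the 22 longer ones (5.17 to 18.3 kb) it was -0.34 and 0.10. At 7 days it was 0.16 and 0.17 in the shorter genes and -0.30 and 0.20 in the longer ones, so that replicate 2 did not have lower values in the longer genes. The part of length in the single results was not tested.

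**Figure D4:**
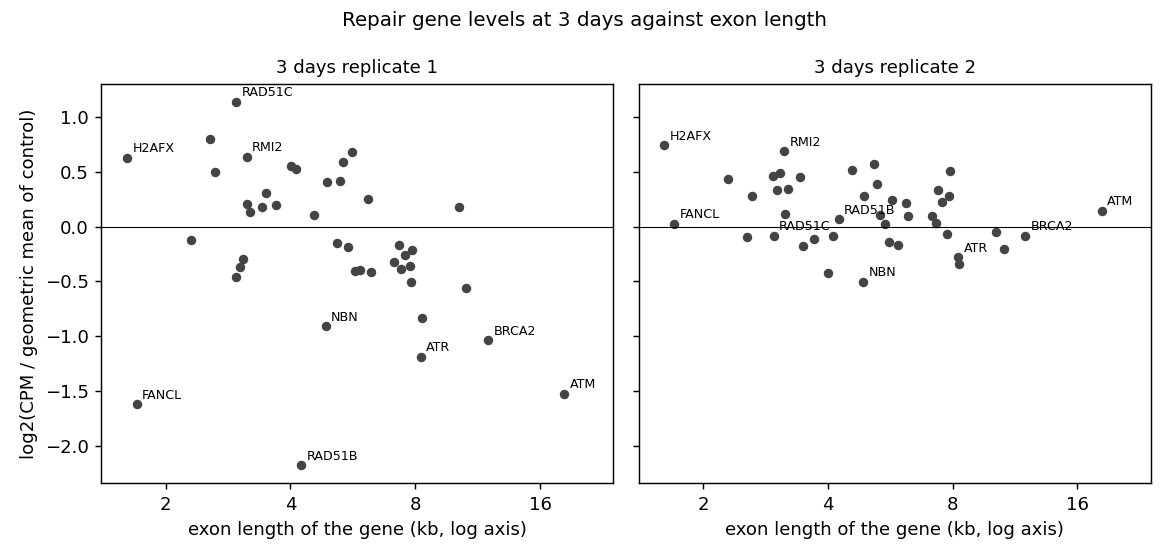
Exon length (x axis, log scale) against log2 of CPM over the geometric mean of control (y axis) for the 43 genes, in replicate 1 and replicate 2 at 3 days. Replicate 1 has a wide spread with long genes such as ATM and BRCA2 low, together with the short FANCL, whereas in replicate 2 ATM lies above 0 and NBN is the lowest gene.

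A further value moved with the split of the later replicates. Over 25 p53 target genes the median log2 difference from the control mean was 1.12 in replicate 1 and -0.29 in replicate 2 at 3 days, and 1.03 and -0.31 at 7 days, against 0.13 and -0.13 in control. Its part in the levels of the repair genes was not tested.

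Other genes of the pathway passed no test either (edgeR, 0 called in each list and comparison with control). Among 41 further recombination and Fanconi genes, the median log2 fold change was -0.02 at 24 h, 0.15 at 3 days and 0.10 at 7 days, with 17, 24 and 24 of the 41 positive. RPA2, a subunit of the protein that coats single-stranded DNA, stood at 91.3 and 76.0 CPM at 3 days against 57.7 and 55.5 CPM in control (0.56 ± 0.24 SE), and WEE1, the kinase that restrains CDK1, at 180.3 and 137 CPM against 122 and 101 CPM. Among 18 genes of break ubiquitin signalling and end protection the medians were 0.01, 0.14 and 0.10 in the same order of times. DCLRE1B, a nuclease, stood at 22.6 and 17.4 CPM at 3 days against 15.6 and 9.21 CPM in control. Among 18 end joining genes the medians were -0.12, 0.01 and 0.07, with 14 of 18 negative at 24 h. XRCC6, which encodes the end-binding protein Ku70, stood at 367 and 195 CPM at 7 days against 183 and 143 CPM in control, high chiefly in replicate 1, and the ligase gene LIG4 at 39.98 and 62.7 CPM at 3 days against 62.4 and 93.7 CPM in control.

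Between 7 and 3 days no member passed (edgeR, 0 of 43; 0% of all genes) and 0 had an unadjusted p under 0.05 (0.247% of all genes), with log2 fold changes from -0.30 to 0.31, of which 27 were positive (49.6% of all genes). Both 7 day libraries lay above both 3 day libraries for 3 members, BLM, RBBP8 and TOPBP1 (5.24% of all genes), and below for 0 (6.41%). In the comparison of 3 days with 24 h, which uses no control library, 0 of 43 passed (0% of all genes), and 2 members, NBN and FANCG, had an unadjusted p under 0.05 (6.09% of all genes). There 25 members were positive (51.3% of all genes), 6 had separated groups higher (17% of all genes) and 6 lower (17.6%). With 2 libraries a group, an exact two-sided permutation test of a single gene cannot go below p = 0.333, and a p that misses the threshold does not show that levels were alike.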

How the data were processed

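For each of the 8 libraries the authors deposited raw read counts of 23710 gene symbols. A further 5 summary entries name no gene and were left out (42.6% to 57.5% of reads). The submitters' processing notes list GRCh37 and hg19, R 3.2.3, DESeq2 1.8.1, Bowtie2, Trim Galore and SAMtools. Which program counted the reads, whether it used strand and which annotation it read is not given in the sources used here. Libraries were made from poly-A selected RNA of 2 biological replicates per group, per the labels' protocols.

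Genes were filtered with filterByExpr in edgeR 4.0.16 (R 4.3.3; minimum count 10, total 15), leaving 12536, and scaled with TMM. A quasi-likelihood model with a coefficient per group was fitted to all 8 libraries (biological coefficient of variation 0.276), and p-values were adjusted by Benjamini-Hochberg over all genes tested in each of 5 comparisons and a joint test, with calls at 0.05. CPM are counts over TMM-scaled library size, and log2 CPM used a prior count of 2. Values are mean ± SD of 2 libraries; SE of fold changes come from the F statistic. Counts are not independent molecules, since no molecular identifiers were used. In the main fit, p-values set the difference between groups against the spread of these libraries within groups, estimated over the 4 groups together. The procedure was tested on simulated data, where the planted changes were larger than the fold change of any member here. It therefore does not show whether changes of the members' size would be called. The 43 members, their roles and the other lists were chosen with earlier results of these data known, and 1 gene of the other lists is not reported here. Every member may be named; values in all libraries are given for the 5 members with the smallest p per comparison with control and for anchors of each role, and other lists give up to 3 genes with the smallest p. Values per kilobase use exon lengths of GENCODE 29 (GRCh38), from which overlaps were also taken, and no position is converted between builds. Alternatives were RLE scaling, no filter, at least 50 counts in 2 libraries, DESeq2 1.42.0, a fit of the 2 groups compared, a block for the replicate number, and leaving out 1 library at a time. Leaving out both late replicate 1 libraries together, and a crossed block, were chosen after seeing the data.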

Additional observations from a re-analysis of the deposited data

Results flagged for a closer look

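RAD54L lay below both control libraries in both 24 h libraries (log2 fold change -0.27) and above both in the later groups (0.16 at 3 days and 0.19 at 7 days). The difference between 3 days and 24 h was 0.44 ± 0.23 SE (edgeR unadjusted p = 0.0933, adjusted p = 0.757), and that between 7 days and 24 h was not tested.

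FANCB lay above both control libraries in both 24 h libraries (log2 fold change 0.26) and below both in both 7 day libraries (-0.17). The difference between 7 days and 24 h was not tested.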

How the results depend on the processing

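The count of 0 members called was the same in each comparison under every setting run. Over all genes, DESeq2 called 0 at 24 h, 9 at 3 days and 15 at 7 days, and edgeR with no filter called 0, 11 and 16; in the joint test they called 65 and 67, and for 3 days against 24 h 19 and 21. The members' median was within 1 SD between replicates (0.14) of its reported value in the other fits that did not leave out 1 library. Leaving out 1 library moved the median by more than that SD in each comparison except 24 h against control. With each library left out it ranged from -0.08 to 0.06 at 24 h, from -0.18 to 0.16 at 3 days, from -0.072 to 0.17 at 7 days, from -0.15 to 0.16 for 7 days against 3 days, and from -0.073 to 0.195 for 3 days against 24 h. The cause of the lowest values, without replicate 2 of the later group, was not tested.

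Among 67 fold changes of named members against control, 52 of 536 values with 1 library left out and 18 of 489 under other settings changed sign. At 24 h, where 14 of 20 named members did so, leaving out a library gave RMI2 from -0.023 to 0.43, BRCA1 from -0.024 to 0.27, BRCA2 from -0.13 to 0.42, PALB2 from -0.39 to 0.17, RAD51C from -0.60 to 0.43, FANCA from -0.040 to 0.065, FANCD2 from -0.017 to 0.25, FANCI from -0.11 to 0.23, BLM from -0.23 to 0.33, NBN from -0.12 to 0.42, ATM from -0.36 to 0.61, ATR from -0.18 to 0.26, CHEK1 from -0.47 to 0.24 and H2AFX from -0.27 to 0.73. At 3 days it gave BRCA1 from -0.51 to 0.28, PALB2 from -0.43 to 0.54, RAD51C from -0.11 to 1.11, FANCA from -0.42 to 0.097, FANCD2 from -0.23 to 0.50, FANCI from -0.15 to 0.57, MRE11A from -0.27 to 0.22 and ATM from -1.60 to 0.075. At 7 days it gave BRCA1 from -0.38 to 0.30, BRCA2 from -0.71 to 0.17, PALB2 from -0.22 to 0.46, RAD51C from -0.21 to 0.98, FANCA from -0.67 to 0.16, FANCD2 from -0.34 to 0.56, FANCI from -0.079 to 0.55, MRE11A from -0.29 to 0.27 and ATM from -1.35 to 0.17. Without both late replicate 1 libraries, only 26 of the 43 members kept their sign at 3 days, and 30 of 43 at 7 days. Among the named members, the sign then changed at 3 days for BRCA1 0.28, PALB2 -0.43, RAD51C -0.099, FANCA 0.10 and ATM 0.081. At 7 days it changed for BRCA1 0.30, BRCA2 0.17, PALB2 -0.22, RAD51C -0.20, FANCA 0.16 and ATM 0.17. MRE11A stood at -0.017 at 3 days and -0.0097 at 7 days with the replicate block, and at -0.017 and -0.0092 with the stricter filter. BRCA1 at 7 days was 0.00077 with RLE scaling and 0.0022 with DESeq2, and RAD51C at 24 h was -0.017 with crossed numbers. The members whose groups separated at both later times keep their sign largely by how they were chosen, so their stability is not a result. The labels do not say that a replicate number marks a shared culture or batch, and not every pair of groups deviated together. The differences between replicates 1 and 2 correlated at 0.81 between 3 and 7 days and at -0.60 between 24 h and control, at 0.34 between 3 days and control and at 0.32 between 7 days and control. With the replicate block, 0 members were called in any comparison, and the members' medians were 0.07 at 24 h, 0.06 at 3 days and 0.09 at 7 days. With crossed numbers in control and 24 h, 216 of all genes and 0 members were called. Depth was 34 counts or more for every member in every library, and how much counting error adds to the spread between libraries was not tested.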

Other observations

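The split of the control and 24 h libraries across replicate numbers ran in both directions among the repair genes. H2AFX stood at 133 CPM in 24 h replicate 2 and 107 CPM in control replicate 1, against 69.7 CPM in 24 h replicate 1 and 61.0 CPM in control replicate 2. ATM had the opposite order, at 532 CPM and 473 CPM in the first pair and 917 CPM and 887 CPM in the second. Over the 43 genes, the differences between replicates 1 and 2 correlated at -0.83 between 24 h and control and at 0.93 between 3 and 7 days, as a description across genes of the same libraries.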
